A study of Mus musculus with 29 samples.

Results

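The report concerns 8 genes: the CC chemokines Ccl2, Ccl7 and Ccl9, the CXC chemokines Cxcl1, Cxcl5, Cxcl12 and Cxcl13, and the chemokine receptor gene Cxcr6. They are 8 of 19938 genes measured on the arrays. They were chosen by name, with measured values of the same arrays already known, so a change that may have led to the choice is described here without a test. For every one of them a single probe set carried the symbol alone, and its level is the one given.

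Expression was measured in C2C12, a mouse myoblast line that divides in serum-rich medium and fuses into multinucleated myotubes when serum is withdrawn. All cells were at passage 27. Proliferating cells in DMEM with fetal bovine serum received, through the lipid reagent Hiperfect, 50 nM of a synthetic Qiagen mimic of Let-7b, miR-365, miR-145, miR-34a, miR-29a, miR-22 or miR-1, or of the AllStar negative control oligonucleotide, and RNA was collected after 36 h. Each mimic had 3 arrays from independent experiments, and the control had 6, which were 3 transfections with a technical repeat each and were averaged to 3 values. Untransfected C2C12 cells gave 1 array labelled as differentiated myotubes and 1 labelled as proliferating wild type cells, called myotube and myoblast here. By the labels, mimic and control cells were alike in line, medium, dose, reagent and time. The study used 1 cell line, and the labels name the microRNAs but not the strand of the mimic.

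Chemokines are small secreted proteins that bind receptors of the G protein coupled family and guide cells along their gradients. In skeletal muscle they are known for drawing monocytes and neutrophils into injured tissue, and Cxcl12 with its receptor Cxcr4 also for guiding migrating muscle precursors. A microRNA mimic loads the cell's silencing complex, which binds messenger RNAs through the seed at the 5′ end of the microRNA.

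The mature microRNAs of 5 of the 7 groups are shown because they are the agents that were compared. Capitals mark the seed, bases 2 to 8. The sequences are those of RefSeq on mouse build GRCm38.p6.
miR-22-3p: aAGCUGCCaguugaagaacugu
miR-29a-3p: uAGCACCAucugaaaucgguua
miR-34a-5p: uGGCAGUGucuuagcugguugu
miR-365-3p: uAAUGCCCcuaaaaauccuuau
let-7b-5p: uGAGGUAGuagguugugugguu
No seed was shared among these 5. They are encoded at chr11:75463772-75463793 (plus strand, miR-22), chr6:31062673-31062694 (minus strand, miR-29a), chr4:150068473-150068494 (plus strand, miR-34a) and chr15:85707325-85707346 (plus strand, Let-7b). The miR-365 sequence is encoded at chr11:79726467-79726488 and at chr16:13453895-13453916, both on the plus strand.

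All levels are log2 values of the robust multi-array average (RMA), in which 1 unit is a doubling. The 29 arrays ranged from 2.35 to 14.65 with medians between 7.24 and 7.39, and precision is limited by how few arrays each group had. A level under 6.67, the median of the probe sets with no listed gene, is called dim here, and no fold is given from a dim mean. By the rule that a gene is dim where all 8 transfected group means lie under that level, none of the 8 genes was dim. Cxcl5 came closest, with 7 of 8 group means under it. The myoblast markers Myod1, Myf5, Des, Cdh15, Itga7, Chrna1, Myf6 and Pax7 were above the dim level (8 of 8), while Adgre1, Csf1r, Itgam, Lyz2 and Ptprc (5 of 8 macrophage and monocyte markers), Cd3g, Cd4, Klrb1c, Cd79a and Ms4a1 (5 of 7 lymphocyte markers) and 5 of 6 endothelial markers were dim in all 8 transfected groups. Of 6 fibroblast markers 2 were dim, Dpt and Lum, and limma called Pdgfra under miR-1, miR-34a and Let-7b and Dcn under miR-22, miR-34a and miR-365. Their list mean over the samples of a mimic lay between 6.17, under miR-1, and 6.73, under miR-22, against 6.32 to 6.44 in control. Limma also called Cd14, a monocyte marker, under miR-22 and Let-7b. The remaining macrophage, lymphocyte and endothelial markers had control means of 8.15 (Cd68), 7.35 (Cd14), 6.69 (Fcgr1), 7.22 (Cd3e), 7.03 (Cd8a) and 7.36 (Vwf). The part of these markers in the differences below was not tested. Cxcl1, Cxcl13 and Cxcr6 had control means of 7.60, 7.53 and 6.75. Whether levels of this size reflect the transcript was not tested. The array labelled proliferating myoblast had Myh3, embryonic myosin heavy chain, at 12.1 and Myog, a differentiation factor, at 11.6, against control means of 9.97 and 9.76, so by these markers it stood above the control-transfected cells. The mean of 8 myotube markers also moved among the transfected groups. It ranged from 10.6 to 11.2 over the samples under miR-1, 10.91 to 10.98 under miR-22, 10.2 to 10.7 under miR-29a, 10.83 to 10.99 under miR-34a, 10.1 to 10.9 under miR-145, 10.3 to 10.4 under miR-365 and 9.28 to 10.01 under Let-7b, against 10.04 to 10.20 in control, and its part was not tested either.

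**Figure D1:**
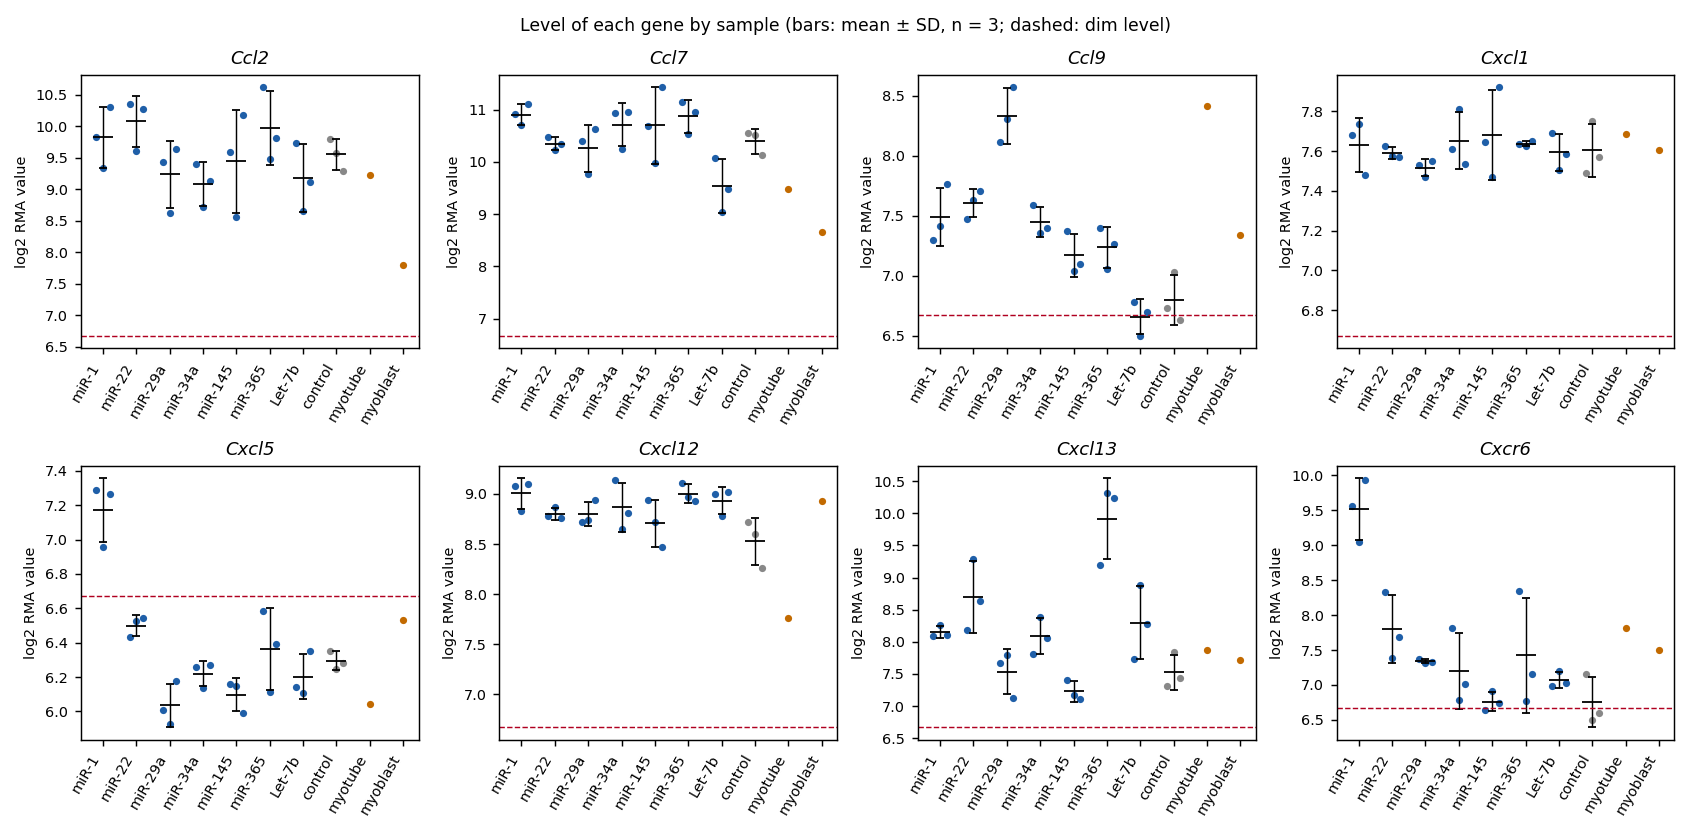
Log2 RMA level (vertical axis) of each of the 8 genes in the 7 mimic groups, the control, the myotube array and the myoblast array (horizontal axis). Points are samples, the control as 3 averaged values. Bars give the mean ± SD (n = 3) and the dashed line the dim level of 6.67. Cxcr6 under miR-1 (9.05 to 9.93), Cxcl13 under miR-365 (9.19 to 10.32) and Ccl9 under miR-29a (8.11 to 8.57) are the highest of the 8 transfected groups of these 3 genes, overlapped among them only by 1 Cxcl13 value under miR-22 (9.29). The myotube array of Ccl9 (8.42) lies within the miR-29a range. Cxcl1 stays between 7.47 and 7.92.

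Each mimic was compared with the control by a linear model in limma over all genes, and a gene was called at a Benjamini-Hochberg adjusted p under 0.05. Cxcr6 under miR-1, Cxcl13 under miR-365 and Ccl9 under miR-29a are left out of the counts that follow, since these differences may have led to the choice of the genes, and each of these mimics is read over the other 7 genes. Under miR-1, 3 of 7 genes were called higher (Ccl9, Cxcl5 and Cxcl12), where 13.2% of all genes were called higher and 10.5% lower. Under miR-22, 3 of 8 were called higher (Ccl9, Cxcl13 and Cxcr6), against 8.82% of all genes higher and 5.67% lower. Under miR-365, 2 of 7 were called higher (Ccl9 and Cxcl12), against 11.7% higher and 8.33% lower. Under miR-29a limma called 0 of 7 (1 at an unadjusted p under 0.05), where 5.54% of all genes were higher and 4.78% lower. A single gene of the 8 was called higher under miR-34a (Ccl9, against 5.62% higher and 6.06% lower) and under Let-7b (Cxcl12, against 5.46% higher and 5.46% lower). Under miR-145 limma called 0 of the 8 (1 at an unadjusted p under 0.05), where 3.85% of all genes were higher and 3.00% lower. No gene was called lower by limma under any mimic, and at an unadjusted p under 0.05 Cxcl5 was lower under miR-29a and Ccl7 under Let-7b. The median difference of the 8 genes from the control was 0.57 under miR-1, 0.46 under miR-365, 0.40 under miR-22, 0.33 under miR-34a, 0.04 under miR-145, -0.04 under miR-29a and -0.05 under Let-7b, and that of all genes lay between -0.01 and 0.04. These medians include the 3 differences left out of the counts. Because the genes were chosen with results known, the counts are a description. All 7 comparisons share the 3 control values.

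**Figure D2:**
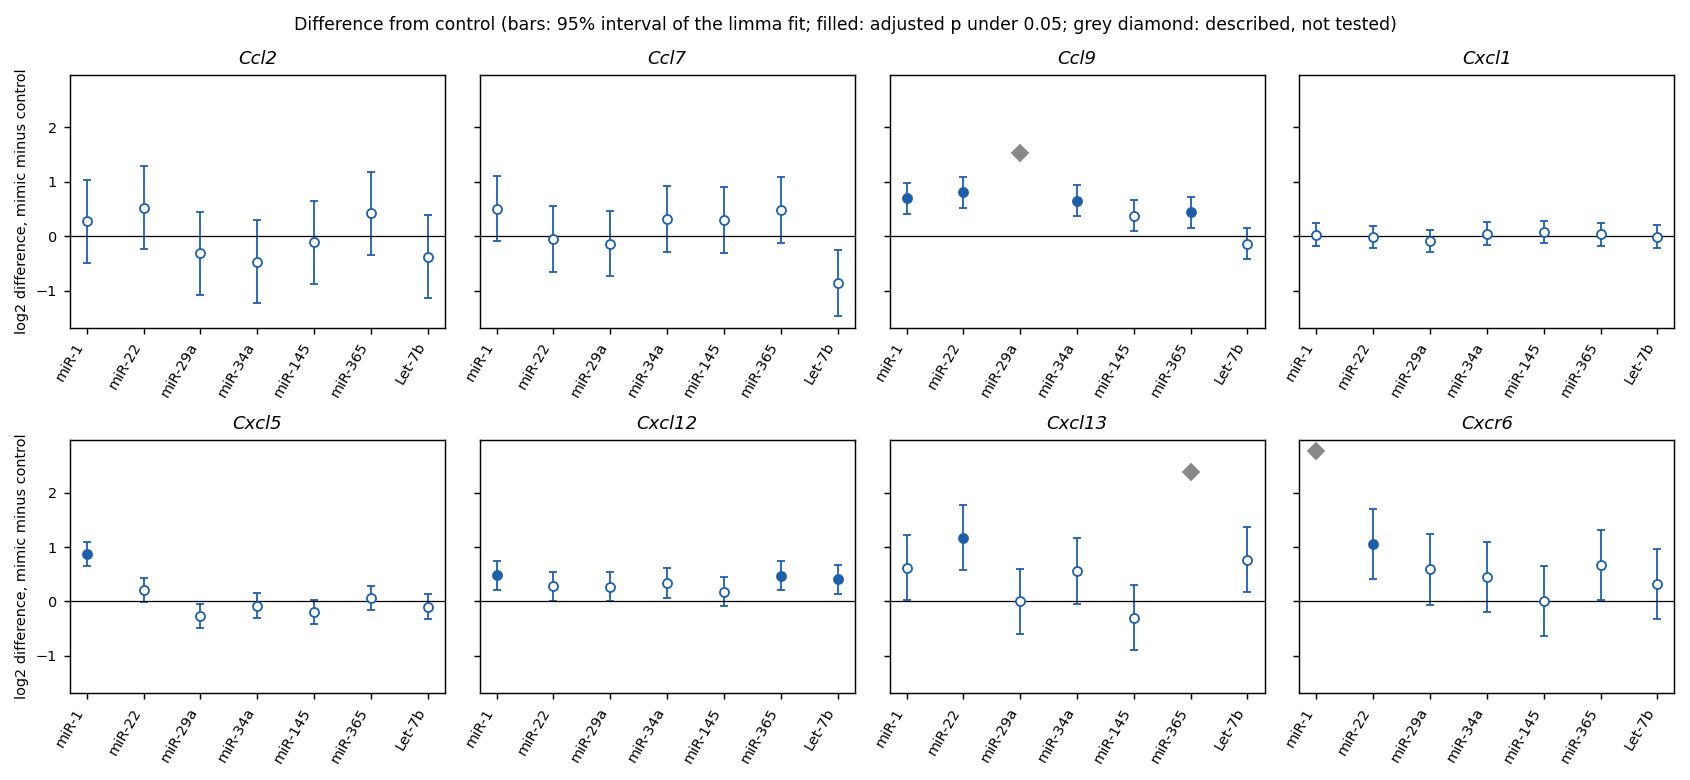
Log2 difference of each mimic from the control (vertical axis) for the 7 mimics (horizontal axis), 1 panel per gene. Bars are 95% intervals of the limma fit, filled points have an adjusted p under 0.05, and grey diamonds are the 3 differences described without a test (Cxcr6 under miR-1 at 2.76, Cxcl13 under miR-365 at 2.39 and Ccl9 under miR-29a at 1.53). Ccl9 was called higher under 4 further mimics, and the points of Cxcl1 lie within 0.09 of 0.

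In the second comparison, which uses no control array, each mimic was set against the mean of the other 6 in the same limma model. The same 3 differences are again left out of the counts and described without a test. Their values remain in the mean of the other 6 for the other mimics, also in the lower calls of Ccl9, Cxcl13 and Cxcr6 below. How far these calls depend on them was not tested. Under miR-1, 1 of 7 genes was called higher (Cxcl5; 15.0% of all genes were higher). Under miR-29a, 2 of 7 were called lower (Cxcl5 and Cxcl13; 8.26% of all genes were lower and 8.80% higher). Under miR-145, 3 were called lower (Cxcl5, Cxcl13 and Cxcr6; 8.59%), and under Let-7b, 2 were called lower (Ccl7 and Ccl9; 10.3%). Under miR-365 limma called 0 of 7 (1 at an unadjusted p under 0.05), where 15.8% of all genes were higher. Limma called 0 under miR-22 (2 at an unadjusted p under 0.05), where 15.8% of all genes were called in either direction, and 0 under miR-34a (1 at an unadjusted p under 0.05), where 14.1% were.

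Ccl2 (MCP-1) and Ccl7 (MCP-3), monocyte attractants that signal through the receptor Ccr2, were far above the dim level in every group, and each of their 24 transfected values lay above the untransfected myoblast array. Ccl2 was 10.35, 9.61 and 10.28 under miR-22, 10.62, 9.47 and 9.81 under miR-365 and 9.40, 8.71 and 9.12 under miR-34a, against 9.79, 9.57 and 9.29 in control. These groups overlapped the control. The other mimics spanned 8.55 to 10.31. In the order of group means, miR-34a was lowest and miR-22 highest, and no neighbours in that order were separated beyond their ranges. Against the control limma called no difference in Ccl2 under any mimic, and for miR-22 the 95% interval of the fold ran from 0.85 to 2.44 (log2 difference 0.53, adjusted p = 0.436). In bulk RNA, fewer cells that make a transcript and less of it per cell cannot be told apart.

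For miR-22, miR-29a, miR-34a and miR-365 the residuals of all 3 samples correlated by more than 0.1 with the control of the same replicate number. When limma fitted the replicate number as a blocking term, Ccl2 differed from the mean of the other 6 mimics under 3 of them. It was higher under miR-22 (by 0.63, adjusted p = 0.0112 with the block, 0.148 without it) and under miR-365 (by 0.50, adjusted p = 0.0307 with the block, 0.224 without it). Under miR-34a it fell by 0.54 (adjusted p = 0.0302 with the block, 0.246 without it).

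Ccl7 had its lowest group mean under Let-7b. It was 10.07, 9.05 and 9.47 under Let-7b, against 10.56, 10.51 and 10.12 in control, and the groups did not overlap. The difference of -0.87 ± 0.29 (standard error of the limma fit) had an adjusted p of 0.0607 and was not called. It was negative in 3 of 3 replicate numbers. It stayed uncalled by limma without any single control value and without Let-7b replicate 2 or 3. Further quantile normalization, no variance trend and averaging of probe sets also left it uncalled. The difference was smallest in size without Let-7b replicate 2 (limma adjusted p = 0.298). Ccl7 passed as lower under 6 other alternatives. The limma adjusted p was 0.0190 without Let-7b replicate 1 (where the difference was -1.14), 0.0479 without the technical repeats, 0.0246 with technical pairs as a random block, 0.00511 with the replicate block, 0.0440 without the lowest 40% of genes and 0.0253 with the other mimics out of the model. Against the other 6 mimics, whose mean was 10.63, Ccl7 was 2.14-fold lower under Let-7b, where its mean was 9.53 (limma adjusted p = 9.0e-04). Some values of the other mimics, the lowest 9.76, lay below the highest Let-7b value. The remaining group means lay between 10.26 under miR-29a and 10.90 under miR-1. Under miR-1 Ccl7 was 10.91, 10.70 and 11.11, all above the control values, and the difference of 0.51 was not called by limma (adjusted p = 0.260, 0.0236 with the other mimics out of the model). With the block, Ccl7 under miR-365 exceeded the mean of the other 6 mimics by 0.46 (limma adjusted p = 0.0287, 0.142 without it). Without miR-145 replicate 3, which held the highest Ccl7 value, Ccl7 also exceeded the other 6 under miR-1 (by 0.56, limma adjusted p = 0.0299) and under miR-365 (by 0.52, limma adjusted p = 0.0468).

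Replicates of the same number moved alike in both genes. Replicate 2 was the lowest of its group in 7 of 7 mimics for Ccl2 and in 7 of 7 for Ccl7, but not in control, where replicate 3 was the lowest for both. Over the 7 mimics Ccl2 averaged 9.85 in replicate 1, 9.0 in replicate 2 and 9.78 in replicate 3. Cxcl13 went the other way, with replicate 2 the highest in 6 of 7 mimics. With group means removed, Pearson's r over the 24 values was 0.92 between Ccl2 and Ccl7 and -0.69 between Ccl2 and Cxcl13. These correlations are descriptions. The labels do not say whether a number marks the same experiment in every group.

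**Figure D3:**
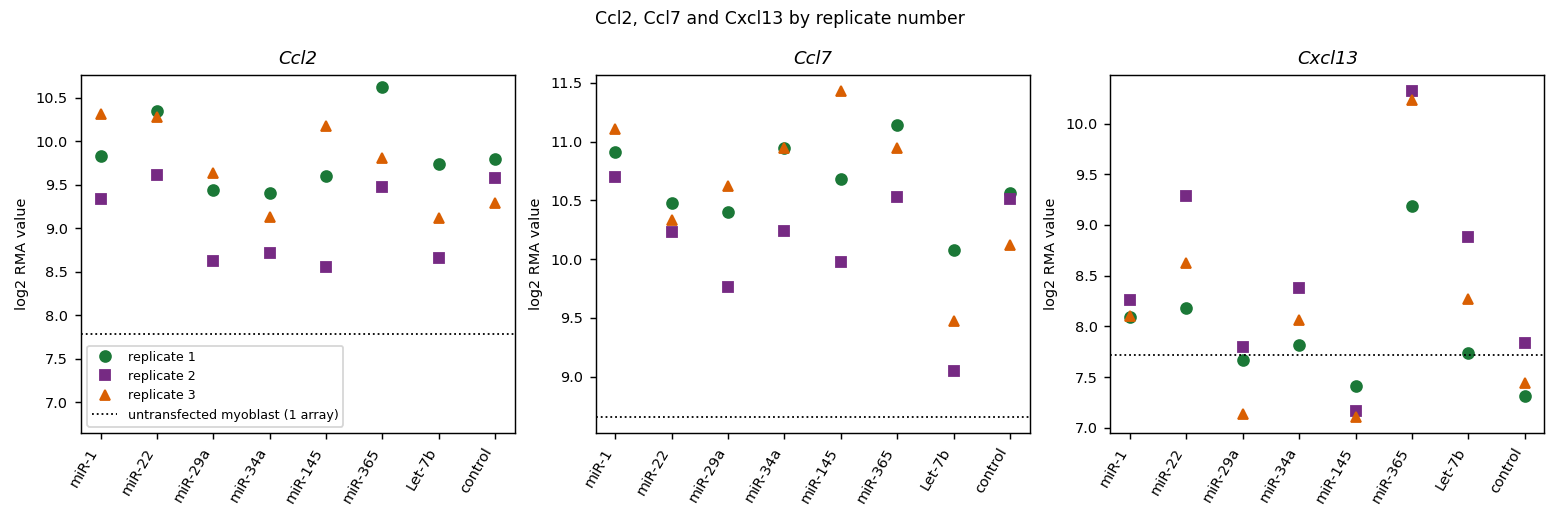
Log2 RMA level (vertical axis) of Ccl2, Ccl7 and Cxcl13 in the 7 mimic groups and the control (horizontal axis), marked by replicate number, with the untransfected myoblast array as a dotted line. Replicate 2 is the lowest value in 7 of 7 mimics for Ccl2 and Ccl7 and the highest in 6 of 7 for Cxcl13, and all transfected values of Ccl2 and Ccl7 lie above the myoblast array (7.79 and 8.66).

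The control mean minus the myoblast array was 1.76 for Ccl2 and 1.74 for Ccl7. It was between -0.75 (Cxcr6) and -0.00088 (Cxcl1) for the other 6 genes. The myoblast sample is 1 array and carried more differentiation markers than the controls. Transfection, culture and differentiation cannot be told apart in this difference.

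Ccl9 (MIP-1 gamma), which in mice attracts cells through Ccr1, was called higher than control under 4 mimics, beside its difference under miR-29a. Against the other 6 mimics, whose mean includes miR-29a, limma called it under none of these 4 (adjusted p 0.155 to 0.903). The 4 comparisons share the 3 control values, whose mean lay 0.54 below the myoblast array (7.34). Under miR-29a Ccl9 was 8.11, 8.31 and 8.57, against 6.73, 7.03 and 6.63 in control. That is 2.89-fold (log2 1.53), the largest difference of this gene and 1 of the 3 described without a test. Under miR-22 it was 7.48, 7.63 and 7.70, which is 1.75-fold above control (log2 0.80 ± 0.14, limma adjusted p = 2.4e-04). Under miR-1 it was 7.30, 7.41 and 7.76, or 1.62-fold above control (0.69 ± 0.14, limma adjusted p = 5.0e-04). Under miR-34a it was 7.59, 7.36 and 7.39, or 1.57-fold above control (0.65 ± 0.14, limma adjusted p = 0.00247). In these 4 groups every value exceeded all 3 control values.

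Under miR-365 Ccl9 was 7.39, 7.05 and 7.27, 0.44 ± 0.14 above control (limma adjusted p = 0.0240). This call was lost without miR-365 replicate 1 (adjusted p = 0.123) or 3 (0.0764) and without control replicate 1 (0.0808) or 3 (0.132). Under miR-145 it was 7.37, 7.04 and 7.09, above all control values, and the difference of 0.37 was not called (limma adjusted p = 0.113). Under Let-7b it was 6.78, 6.50 and 6.70, with a mean of 6.66 just under the dim level and 1 of 3 values under it. From control it differed by -0.14 there (limma adjusted p = 0.725). It lay 0.89 below the mean of the other 6 mimics, which was 7.55 (limma adjusted p = 1.6e-06). That mean includes the high miR-29a values, so this call is a description. No Let-7b value reached any value of another mimic. Along the order of group means, the control stood apart from miR-145 above it and miR-22 from miR-29a. The other neighbours overlapped. The miR-145 level was called lower than the other 6 mimics with the replicate block (by limma, adjusted p = 0.0427, 0.0552 without it) and when any 1 of 5 samples was left out (0.0301 to 0.0471). The control values themselves lay near the dim level, 1 of 3 under it.

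The 250 bases before the Ccl9 start site are shown because Ccl9 was called under the most mimics. The window is chr11:83578637-83578886 on the minus strand of GRCm38.p6, from RefSeq. Capitals mark matches, on either strand, to the kappa B motif, the AP-1 motif TGANTCA, the E-box CANNTG and the TATA motif TATAAA.
Ccl9: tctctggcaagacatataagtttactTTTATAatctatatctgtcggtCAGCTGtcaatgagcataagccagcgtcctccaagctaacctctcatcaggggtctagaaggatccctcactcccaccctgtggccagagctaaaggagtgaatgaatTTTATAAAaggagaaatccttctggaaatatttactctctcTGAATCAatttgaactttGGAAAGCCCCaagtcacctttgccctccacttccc
The kappa B match began 35 bases and the AP-1 match 53 bases before the start, the E-box match 202 bases, and the TATA matches 224, 94 and 92 bases, the last pair overlapping. Of 32851 RefSeq windows of this length, 7.25% held the kappa B motif, 6.75% the AP-1 motif, 66.2% an E-box and 12.4% the TATA motif. Of the 8 genes, 5 had a window (Ccl9, Cxcl1, Cxcl12, Cxcl13 and Cxcr6), and Cxcl12 had no match to any of the 4 motifs. A match says only that these letters are in the window.

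Cxcl1 (KC), a neutrophil attractant that signals through Cxcr2, varied the least of the 8 genes. The 8 transfected group means lay between 7.52 under miR-29a and 7.68 under miR-145, all above the dim level, and the 3 control values were 7.49, 7.75 and 7.57. The differences from control ran from -0.09 under miR-29a to 0.08 under miR-145, and limma called none (adjusted p 0.760 to 0.986). The 95% intervals of the fold lay between 0.81 for the lower bound under miR-29a and 1.22 for the upper bound under miR-145. Its window, chr5:90890995-90891244 on the plus strand of GRCm38.p6, is shown as that of the gene with the flattest levels.
Cxcl1: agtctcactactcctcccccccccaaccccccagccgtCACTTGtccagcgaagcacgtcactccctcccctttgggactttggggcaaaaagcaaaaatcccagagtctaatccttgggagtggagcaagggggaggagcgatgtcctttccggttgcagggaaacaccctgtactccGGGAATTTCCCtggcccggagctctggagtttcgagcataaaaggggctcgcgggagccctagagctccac
It held 2 overlapping kappa B matches that began 71 and 70 bases before the start and an E-box at 212 bases. The kappa B motif was found in the windows of Cxcl1 and Ccl9 and not in those of Cxcl12, Cxcl13 and Cxcr6. No window was at hand for Ccl2, Ccl7 and Cxcl5, and the part of the motif in the levels was not tested.

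Cxcl5 (LIX in mice), another neutrophil attractant and ligand of Cxcr2, was above the dim level under miR-1 alone. It was 7.29, 6.96 and 7.27 under miR-1, against 6.35, 6.25 and 6.28 in control. The groups did not overlap, and the difference was 0.87 ± 0.11 (limma adjusted p = 1.7e-06). No fold is given because the control level was dim. The miR-1 difference from the other 6 mimics was 0.93 ± 0.08 (limma adjusted p = 1.2e-08). The 18 values of those 6 lay between 5.93 and 6.58. Within this dim range Cxcl5 fell below the other 6 mimics by 0.39 under miR-29a (limma adjusted p = 0.00139) and by 0.32 under miR-145 (limma adjusted p = 0.00784), where the mean of the other 6 includes miR-1. The miR-145 call was lost without miR-145 replicate 3 (adjusted p = 0.0898).

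Cxcl12 (SDF-1), the ligand of Cxcr4 and Ackr3, had its lowest group mean in control and its lowest level of all in myotubes. It was 9.08, 8.83 and 9.10 under miR-1, 9.11, 8.97 and 8.93 under miR-365 and 9.00, 8.78 and 9.02 under Let-7b, against 8.72, 8.60 and 8.26 in control. In these 3 mimics every value exceeded the control values. The differences were 0.48 ± 0.13 under miR-1 (limma adjusted p = 0.00878), 0.48 ± 0.13 under miR-365 (limma adjusted p = 0.0109) and 0.41 ± 0.13 under Let-7b (limma adjusted p = 0.0488), all under 1.4-fold.

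Each of these calls was lost without control replicate 3, which was 8.32 with a technical repeat at 8.21. Then the miR-1 difference was 0.35 (limma adjusted p = 0.0855), the miR-365 difference 0.34 (0.101) and the Let-7b difference 0.27 (0.316). The miR-365 call was also lost without miR-365 replicate 1 (limma adjusted p = 0.0564). The Let-7b call was also lost without control replicate 2 (0.0781), without Let-7b replicate 1 (0.144) or 3 (0.188), without the technical repeats (0.052) and with the other mimics out of the model (0.0503). With the replicate block, the miR-34a difference of 0.34 passed as well (limma adjusted p = 0.0473, 0.111 without the block). Limma called no mimic against the other 6, and in the order of group means no neighbours were separated.

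Cxcl13 (BLC), which attracts B cells through Cxcr5, had its highest level under miR-365, at 9.19, 10.32 and 10.23, against 7.31, 7.84 and 7.44 in control. This 5.23-fold difference (log2 2.39) is described without a test. Under miR-22 it was 8.18, 9.29 and 8.63, all above the control values. The miR-22 difference was 2.25-fold (1.17 ± 0.29, limma adjusted p = 0.00707), and without miR-22 replicate 2 it was 0.88 (adjusted p = 0.0571). It was 7.74, 8.88 and 8.27 under Let-7b, overlapping the control. The difference of 0.77 was not called (limma adjusted p = 0.103), but it passed with the replicate block (0.0142) and, at 1.05, without Let-7b replicate 1 (0.0286). Under miR-1 it was 8.10, 8.26 and 8.10, above all control values, and the difference of 0.62 was not called (limma adjusted p = 0.140) but passed with the replicate block (0.0305) and with the other mimics out of the model (0.00880).

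Among the mimics, the lowest group means of Cxcl13 were under miR-145, at 7.41, 7.17 and 7.11, and miR-29a, at 7.66, 7.79 and 7.13, which both overlapped the control. Cxcl13 differed from control by -0.30 under miR-145 and by 0.001 under miR-29a, and limma called neither. It lay below the mean of the other 6 mimics by 1.22 under miR-145 (limma adjusted p = 4.0e-04) and by 0.87 under miR-29a (limma adjusted p = 0.00713). That mean includes the miR-365 values, so these calls are descriptions. The miR-29a call was lost without miR-29a replicate 3 (adjusted p = 0.115). With the block, Cxcl13 under miR-22 was also higher than under the other 6, by 0.50 (limma adjusted p = 0.0313). The Cxcl13 window, chr5:95956689-95956938 on the plus strand of GRCm38.p6, is shown as that of the chemokine with the widest range of group means (2.68).
Cxcl13: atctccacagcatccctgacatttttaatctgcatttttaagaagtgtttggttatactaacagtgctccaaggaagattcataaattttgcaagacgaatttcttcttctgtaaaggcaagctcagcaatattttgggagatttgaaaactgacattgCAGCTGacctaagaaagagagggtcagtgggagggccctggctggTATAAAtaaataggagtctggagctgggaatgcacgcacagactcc
Capitals mark an E-box that began 91 bases and a TATA match that began 46 bases before the start.

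Cxcr6, the only receptor among the 8 genes and the receptor of Cxcl16, was highest under miR-1. It was 9.56, 9.05 and 9.93 under miR-1, against 7.16, 6.49 and 6.61 in control. The 6.77-fold difference (log2 2.76) is described without a test, and 2 of the 3 control values were under the dim level. The next group in order, miR-22, lay apart from miR-1, at 8.34, 7.39 and 7.68. It was 2.07-fold above control (1.05 ± 0.31, limma adjusted p = 0.0243) with every value above the control values. This call was lost without miR-22 replicate 1 (adjusted p = 0.146) or 3 (0.0581) and without control replicate 2 (0.110) or 3 (0.0928).

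Replicate 1 stood highest in several groups of Cxcr6. It was 8.35 under miR-365, where replicates 2 and 3 were 6.76 and 7.16, and 7.81 under miR-34a, where they were 6.78 and 7.01. Limma called neither difference from control (adjusted p = 0.156 for miR-365 and 0.504 for miR-34a). Without miR-365 replicate 2 the miR-365 difference was 1.00 (adjusted p = 0.0296). Without miR-365 replicate 1, the highest value, it was 0.21 (limma adjusted p = 0.791). Leaving out any other single miR-365 or control value also left it uncalled. Set against the other 6, Cxcr6 under miR-365 was lower by limma only without miR-365 replicate 1 (-0.65, adjusted p = 0.0435). Under miR-145 Cxcr6 was 6.64, 6.91 and 6.74, overlapped the control and differed from it by 0.009 (limma adjusted p = 0.994). It lay 0.96 below the mean of the other 6 mimics (limma adjusted p = 0.00581). That mean of 7.73 includes the miR-1 values, so this call is a description. Cxcr6 was 7.37, 7.32 and 7.33 under miR-29a and 6.98, 7.20 and 7.03 under Let-7b, with no call against control in either. The miR-29a difference passed with the other mimics out of the model (limma adjusted p = 0.0231). The Cxcr6 window, chr9:123806227-123806476 on the plus strand of GRCm38.p6, is shown for the gene with the widest range of group means (2.76).
Cxcr6: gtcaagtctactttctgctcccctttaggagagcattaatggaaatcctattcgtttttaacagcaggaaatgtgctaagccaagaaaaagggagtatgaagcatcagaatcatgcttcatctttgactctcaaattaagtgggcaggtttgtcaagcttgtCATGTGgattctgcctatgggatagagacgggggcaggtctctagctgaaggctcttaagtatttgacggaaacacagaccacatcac
Capitals mark an E-box that began 88 bases before the start, a motif found in 66.2% of all windows.

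Of the known partners of these genes, most were dim. Ccr2 (the receptor of Ccl2 and Ccl7), Ccr1 (of Ccl9), Cxcr2 (of Cxcl1 and Cxcl5), Cxcr5 (of Cxcl13) and Cxcl16 (the ligand of Cxcr6) lay under 6.67 in all 8 transfected groups. The highest group mean among these 5 was 5.88, for Cxcl16 under Let-7b. The Cxcl12 receptors were above it: the group means of Cxcr4 lay between 9.84 and 11.1 and those of Ackr3, a scavenging receptor, between 7.35 and 8.36. Ackr3 was 8.21, 8.40 and 8.47 under miR-365, against 7.34, 7.58 and 7.35 in control, without overlap. The 1.92-fold difference (0.94 ± 0.16) passed in limma (adjusted p = 1.0e-04). Cxcr4 was 10.40, 10.02 and 9.10 under miR-1, against 10.59, 10.60 and 10.45 in control. It fell by 0.71 ± 0.24 (limma adjusted p = 0.0353), a call lost without miR-1 replicate 3 (adjusted p = 0.361) or any one control value (0.0599 to 0.0970).

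**Figure D4:**
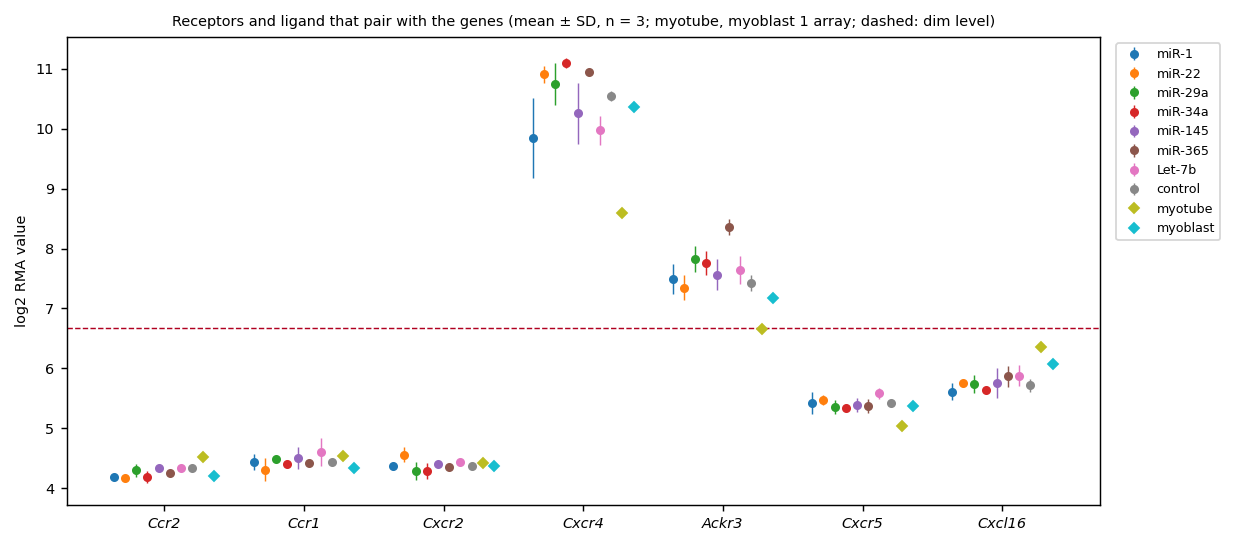
Log2 RMA level (vertical axis) of 6 receptors and 1 ligand that pair with the 8 genes (horizontal axis). Circles are means ± SD of the 7 mimic groups and the control (n = 3), diamonds are the single myotube and myoblast arrays, and the dashed line is the dim level of 6.67. Cxcr4 and Ackr3 are the genes above it in the transfected groups, and the transfected group means of the other 5 lie at or under 5.88. The myotube and myoblast arrays of Cxcl16 are at 6.36 and 6.07.

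Among 28 measured chemokine ligands other than the 8 genes, 15 were dim in all 8 transfected groups, and limma called 1 higher under each of 5 mimics and none under miR-29a or miR-34a (1 lower and 1 higher at an unadjusted p under 0.05). That is 3.57% of the list where a gene was called, against 23.7% of all genes under miR-1, 14.5% under miR-22, 6.85% under miR-145, 20.05% under miR-365 and 10.9% under Let-7b. Under miR-29a and miR-34a 10.3% and 11.7% of all genes were called. Cxcl10, an attractant of activated T cells, was 9.97, 8.50 and 12.72 under miR-145, against 7.18, 7.32 and 6.80 in control. All 3 values exceeded the control values and they differed widely among themselves. The difference was 9.83-fold (3.30 ± 0.54, limma adjusted p = 4.2e-04). Leaving out 1 sample at a time gave 2.14 to 4.25, called in 6 of 6 fits (highest limma adjusted p 0.00412). Ppbp, a platelet chemokine, was 7.75, 7.54 and 7.85 under miR-1, against a dim 6.34, 6.57 and 6.55 in control (1.23 ± 0.12, limma adjusted p = 1.0e-07). Smaller calls were Ppbp under miR-365 (0.39, limma adjusted p = 0.0217), Ccl17 under miR-22 (0.56, limma adjusted p = 0.0469) and Cx3cl1 under Let-7b (0.73, limma adjusted p = 0.0389). Each of these smaller calls was lost when 1 sample was left out (highest adjusted p 0.176, 0.209 and 0.221). For the mimics whose pairs with control all exceeded 0.1, the replicate block gave 2 under miR-22, miR-29a and miR-365 and 1 under miR-34a. Of all 19938 genes the block called 4018 under miR-22, 3142 under miR-29a, 5130 under miR-365 and 3385 under miR-34a.

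Among 21 measured receptors other than Cxcr6, 13 were dim in all 8 groups, and Cxcr4 under miR-1 and Ackr3 under miR-365 were the only calls of the limma fit without a block, each 4.76% of the list, against 23.7% of all genes under miR-1 and 20.05% under miR-365. Under each of the other 5 mimics limma called 0, and between 1 and 4 receptors had an unadjusted p under 0.05. With the block 1 receptor was called under miR-29a and 1 under miR-34a, where the block called 3142 and 3385 of all 19938 genes.

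The list of 36 measured NF-kB pathway and inflammatory response genes, which act upstream of many chemokine genes or beside them, was mixed in direction. Limma called 9 higher and 3 lower under miR-1, 3 and 3 under miR-22, 1 and 2 under miR-29a, 1 and 1 under miR-34a, 3 and 4 under miR-145, 2 and 2 under miR-365, and 4 and 3 under Let-7b. The share called was 33.3% under miR-1, against 23.7% of all genes, 16.7% under miR-22, against 14.5%, 19.4% under miR-145, against 6.85%, and 19.4% under Let-7b, against 10.9%. It was below that of all genes under miR-365 (11.1%, against 20.05%), miR-34a (5.56%, against 11.7%) and miR-29a (8.33%, against 10.3%). The medians of the list lay between -0.02 and 0.05, and those of all genes between -0.01 and 0.04. With the block the count rose under every mimic. It was 16 under miR-1, 8 under miR-22, 3 under miR-34a, 11 under miR-145, 6 under miR-365 and 12 under Let-7b. Under miR-29a it was 6 in place of 3, where the calls over all 19938 genes rose from 2058 to 3142. Ptgs2, the inducible cyclooxygenase, was 2.04-fold higher under miR-1 (1.03 ± 0.25, limma adjusted p = 0.00330). Il1rn, the interleukin 1 receptor antagonist, was 2.27-fold higher under Let-7b (1.18 ± 0.15, limma adjusted p = 9.4e-06). Myd88, the adaptor of Toll-like receptors, fell by 0.79 under miR-365 (limma adjusted p = 7.4e-05).

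Interferon-stimulated genes moved under miR-145 without the 8 chemokine genes being called. Of 28 measured, 14 were called higher and 0 lower by limma (26 and 0 at an unadjusted p under 0.05), with a median of 1.41 against 0.04 for all genes. That is 50% of the list, against 6.85% of all genes called in either direction. The largest differences were those of Ifit3, which averaged 9.82 under miR-145 and a dim 5.32 in control (limma adjusted p = 5.3e-05), Ifit1 (3.48, limma adjusted p = 4.9e-04) and Usp18 (3.43, limma adjusted p = 0.00165). The mean of the list minus the control mean was 0.70, 0.61 and 3.47 in miR-145 replicates 1, 2 and 3. Replicate 3 also held the highest Ccl7 of all 24 values (11.43) and the highest Ccl2 of its group (10.17), beside 10.68 and 9.97 for Ccl7 and 9.60 and 8.55 for Ccl2 in replicates 1 and 2. The part of the interferon-stimulated genes in these values was not tested.

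The pattern of each gene over the 24 values was compared with 14078 genes that were above the dim level in at least 1 group. Cxcl5 was most like Ppbp (Pearson's r = 0.92), F11r (0.90) and Tinagl1 (0.90). Cxcr6 was most like F11r (0.92), Adamtsl5 (0.91) and Phf1 (0.91). F11r thus stood in both lists, and the r between Cxcl5 and Cxcr6 themselves was 0.88. Both genes were highest in the miR-1 samples. The closest genes to Cxcl13 were Snx1 (0.90), Txndc15 (0.88) and Dcaf5 (0.86), and those to Ccl9 were Igdcc4 (0.89), 9330159F19Rik (0.88) and Napepld (0.87). Ccl7 was closest to Iba57 (0.85), Tsc22d2 (0.83) and Nop16 (0.81), and Ccl2 to Pus1 (0.82), Fbxl12 (0.82) and Heatr1 (0.82). Cxcl12 was closest to Ppip5k2 (0.85), Washc2 (0.84) and 1110032A03Rik (0.82). Cxcl1, with its narrow range, had Ovol3 (0.85), Col17a1 (0.84) and Chrna9 (0.83). These correlations over samples that share groups and experiments are descriptions, taken as the highest of many.

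Myotubes were set against the myoblast array with 1 array each, so there was no replicate check and no test. Ccl2 was 9.23 in myotubes and 7.79 in myoblasts, 2.71-fold higher. Ccl9 was 8.42 in myotubes and 7.34 in myoblasts, 2.11-fold higher. Cxcl12 was 7.76 in myotubes and 8.93 in myoblasts, 2.25-fold lower, and all 24 transfected values lay above the myotube array. These 3 genes, 2 higher and 1 lower, passed a difference of 1 on the log2 scale, which 2.71% of all genes did upward and 2.01% downward. Ccl7 was 9.48 in myotubes and 8.66 in myoblasts (1.76-fold higher), and Cxcr6 was 7.82 in myotubes and 7.50 in myoblasts (1.25-fold higher). Cxcl13, at 7.87 in myotubes and 7.72 in myoblasts, and Cxcl1, at 7.69 in myotubes and 7.61 in myoblasts, differed by 0.16 and 0.08, and Cxcl5 was dim in both, at 6.04 in myotubes and 6.53 in myoblasts. Ccl9 in myotubes was in the range of the miR-29a group, while Cxcr6 in myotubes stood below all 3 miR-1 values. The part of the differentiation markers already present on the myoblast array was not tested.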

How the data were processed

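Gene expression was measured on Affymetrix arrays in 29 samples. The deposited values are log2 RMA values made in Affymetrix Expression Console 1.1, per the submitters' processing notes. The genome build and any filter are not given in the sources used here. GEO's platform annotation gave 1 gene symbol for 21789 of the 35556 probe sets, more than 1 for 1621 and no symbol for 12146. A gene was represented by its single-symbol probe set with the highest mean over the 27 transfected arrays. Limma 3.58.1 (R 4.3.3) modelled the 24 transfected values by their 8 groups, with no other term, no filter and a variance trend. Tests were 2-sided, adjusted by Benjamini-Hochberg over 19938 genes within each comparison, and checked on simulated data. The p-values measure the spread within groups, between what the labels call independent experiments. Without the replicate block, a shift shared by a replicate number across groups is part of that spread.

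The members and lists were chosen with earlier results of these data known. A difference of a member that ranked among the 5 largest increases of its mimic was described without a test. Also named were up to 3 called genes with the largest change per list and mimic, the 3 genes most like each member, and markers. Residuals of 23 of 24 values correlated best with a value of the same replicate number, and all 3 pairs with control exceeded 0.1 for 4 mimics (miR-22, miR-29a, miR-34a and miR-365).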

Additional observations from a re-analysis of the deposited data

How the results depend on the processing

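These counts include Cxcr6 under miR-1, Cxcl13 under miR-365 and Ccl9 under miR-29a, which are described without a test. Against the control, the count of the 8 genes called was 2 in place of 1 under miR-29a with only that mimic and the control in the model (Cxcr6 added), and 2 in place of 1 under miR-34a with the replicate block. Under Let-7b it was 1, and became 3 with the replicate block, 2 with technical pairs as a random block and 2 without the lowest 40% of genes, a filter that leaves no value for Cxcl5. Against the other 6 mimics, the replicate block gave 2 in place of 0 under miR-22, 1 in place of 0 under miR-34a and 3 in place of 1 under miR-365. The cause was not tested. Leaving out 1 sample at a time gave, against control, 3 to 4 under miR-1, 2 to 3 under miR-22, 1 to 1 under miR-29a, 1 to 2 under miR-34a, 0 to 0 under miR-145, 1 to 4 under miR-365 and 0 to 2 under Let-7b. Against the other 6 it gave 2 to 3 under miR-1, 0 to 0 under miR-22, 2 to 3 under miR-29a, 0 to 0 under miR-34a, 2 to 4 under miR-145, 1 to 2 under miR-365 and 2 to 4 under Let-7b. Cxcr6 under miR-365 against the other 6, at -0.19, ran from -0.65 to 0.14, the last without miR-365 replicate 2. Over all genes the block raised the calls to 3142 under miR-29a, 2444 under miR-145 and 3298 under Let-7b, from 2058, 1365 and 2177 without it. For miR-1, miR-145 and Let-7b not all 3 pairs with control exceeded 0.1, and the block is given for completeness. Residuals of 23 of 24 values nevertheless correlated best with a value of the same replicate number. Further quantile normalization, no variance trend and leaving out technical repeats left the counts of called genes within 1.5 times. Without the technical repeats the gene called under Let-7b was Ccl7, lower, in place of Cxcl12, higher. Averaging of probe sets could not change the values of the 8 genes, which had 1 probe set each.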
